A study of Homo sapiens with 32 samples.

Results

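MALAT1 and NEAT1 are neighbouring long noncoding RNA genes on chromosome 11, and all of their annotated exonic positions were followed through 32 libraries of acetylcytidine mapping in Hep3B cells. They are 2 of the 5083 annotated genes with an exonic position of at least 30 reads in some library (a listed position). MALAT1 (ENSG00000251562.11) lies at positions 65497640 to 65508073 of the + strand (GRCh38) and has 10434 exonic positions, of which 7058 were listed. NEAT1 (ENSG00000245532.11) lies at positions 65422774 to 65445540 of the same strand and has 22767 exonic positions, of which 4463 were listed. Both are annotated as noncoding, so their exons hold no coding sequence and no untranslated region of an mRNA.

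MALAT1 is an abundant, mostly nuclear RNA of nuclear speckles, the bodies that store splicing factors. Its 3′ end carries no poly(A) tail. RNase P cuts the primary transcript upstream of a tRNA-like RNA, mascRNA, and the new end is protected by a triple helix of an A-rich tract with U-rich motifs. NEAT1 is the scaffold of paraspeckles and is made as a short polyadenylated isoform and as a long isoform that shares its 5′ part, is cut upstream of the tRNA-like menRNA and is needed for paraspeckle assembly.

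The study compared 8 genotypes of Hep3B, an established hepatocellular carcinoma cell line, for the acetyltransferase NAT10, which makes N4-acetylcytidine (ac4C). All cells received 100 nM dTAGV1 for 24 h, a degrader of proteins that carry an FKBP12 F36V tag. FKBP cells carry this tag on endogenous NAT10 and received no add-back, NAT10(-) cells are tagged cells transduced with a control plasmid, and K290A and E389L (RNA helicase domain) and H537A and G641E (GNAT, the acetyltransferase domain) are tagged cells with a NAT10 mutant. The 2 reference genotypes are Wildtype, the untagged parental cells, and NAT10-WT, tagged cells with unmutated NAT10. The transduced cells were selected with blasticidin, the add-backs were expressed from lentiviral vectors under the promoter of a translation elongation factor gene, and the tagged line was a drug-selected population. Each genotype had 2 biological replicates, which for the add-backs were separate transductions. The RNA of each of these 16 samples was split into a NaCNBH3 fraction, in which reduced ac4C is read as T, and a mock fraction in acid alone, so that its 2 libraries share their source. With 2 replicates a genotype, p-values measure the spread between these samples only.

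Each library held 400119 to 3797803 listed positions with a median depth of 49 to 169 reads, and 1210 to 1732 times 1e6 base calls. Listed exonic positions ran from 221684 in mock replicate 2 labelled E389L to 3562792 in NaCNBH3 replicate 1 of K290A, so libraries differed most in how far reads reached beyond the deepest RNAs. ALB, the gene of serum albumin, had 2033 to 2110 listed positions in every library, and of 13 hepatocyte markers, 6 were listed in all 32 libraries (ALB, SERPINA1, AHSG, TF, APOA1 and APOB). APOH was listed in 29, AFP, TTR and FGA in 25 each, HNF4A in 13, FGB in 12 and FGG in 1. Of 14 markers of fibroblasts, endothelium and leukocytes, 12 had no listed position in any library, LUM had some in 2 and LYZ in 26. NAT10 itself had 1441 to 3126 listed positions in K290A, 615 to 2758 in H537A, 2765 to 3028 in G641E and 518 to 1082 in NAT10-WT libraries, but none in FKBP, NAT10(-), Wildtype or the libraries labelled E389L. NAT10 depth therefore does not show an add-back in the libraries labelled E389L, and they are called by their label throughout.

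The covered part of MALAT1 began sharply and ended, at its farthest, just before mascRNA. The stretches at both ends are shown because they mark where reads began and stopped, written 5′ to 3′ from the reference genome, the first with capitals from the first listed base and the other with capitals from the annotated start of mascRNA:
MALAT1 first listed bases: gctgtgcggtAGGCATTGAGGCAGCCAGCG
MALAT1 last listed bases: ctagcttaaaaaaaaaaaaagcaaaaGATG
The first listed base, 65499045, is the annotated start of 19 of 66 MALAT1 transcripts, and 12 libraries began exactly there and 26 within 10 nt. Upstream, 1405 exonic positions of the 12 transcripts that start earlier were listed in no library. The last listed base, 65506115, lies 2 nt before mascRNA (65506117 to 65506173), and neither its 57 positions nor any of the 1958 exonic positions after the last listed base reached 30 reads. The minus strand had no listed position across either gene.

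Depth fell over the last stretch before mascRNA. In the 8 RNA samples with both fractions over 90% listed across the 7071 nt from the first to the last listed base (FKBP 1 and 2, NAT10(-) 2, K290A 1 and 2, E389L 1 by label, and G641E 1 and 2), the median depth relative to the library's own mean over MALAT1 was 0.996 at 150 nt before mascRNA, 0.561 at 100 nt and 0.301 at 50 nt. At 20 nt before mascRNA it was 0, since most of these libraries had no listed position there. The last listed position lay within 40 nt of mascRNA in 11 libraries, so the A-rich tract shown above was read in few of them.

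MALAT1 coverage differed strongly between libraries. FKBP libraries listed 6918 and 7045 MALAT1 positions in NaCNBH3 and 6922 and 7031 in mock, and K290A libraries 7058 and 6974 in NaCNBH3 and 7047 and 6979 in mock. G641E libraries listed 6762 and 6831 positions in NaCNBH3 and 6831 and 6705 in mock. Both replicates of these 3 genotypes therefore covered nearly the whole span. NAT10(-) listed 381 and 6855 positions in NaCNBH3 and 245 and 6820 in mock, and the libraries labelled E389L 7012 and 99 in NaCNBH3 and 7017 and 144 in mock. In these 2 genotypes a single replicate carried almost all MALAT1 positions. H537A listed 4545 and 5530 positions in NaCNBH3 and 5421 and 3507 in mock. Wildtype libraries listed 1984 and 1291 positions in NaCNBH3 and 2463 and 666 in mock, and NAT10-WT libraries 5414 and 3352 in NaCNBH3 and 3849 and 2851 in mock. Over the 16 RNA samples, MALAT1 positions listed and exonic positions of all genes listed had Pearson's r of 0.499 and Spearman's rho of 0.806, a description in which both measures share the library.

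**Figure D1:**
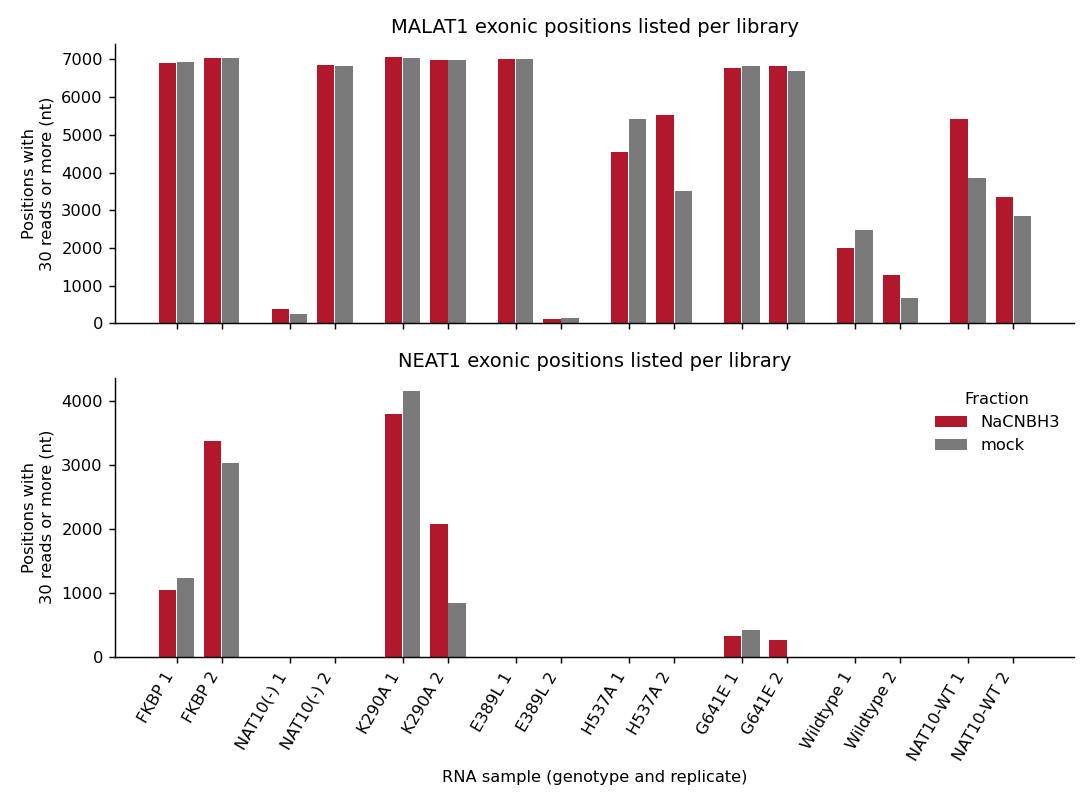
Exonic positions with 30 reads or more (y axis, nt) of MALAT1 (top) and NEAT1 (bottom) in each RNA sample (x axis), with the NaCNBH3 library left of the mock library. MALAT1 bars run from 99 to 7058 positions, and NEAT1 bars stand above 0 in 11 libraries of FKBP, K290A and G641E cells only.

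The level of MALAT1 could be compared between all samples over 37 positions only, 65499426 to 65499462, which begin 381 nt after the first listed base and reached 30 reads in all 32 libraries. Mean depth over this window was 1410 and 848 reads in NaCNBH3 and 1075 and 398 in mock libraries of K290A, the deepest genotype. FKBP had 195 and 634 reads in NaCNBH3 and 186 and 420 in mock, and Wildtype 47.5 and 43.1 in NaCNBH3 and 80.0 and 44.6 in mock. NAT10-WT had 178 and 88.2 reads in NaCNBH3 and 76.6 and 79.3 in mock. The remaining genotypes lay between 31.97 reads (NAT10(-) mock replicate 1) and 388 reads (mock replicate 1 labelled E389L).

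With both fractions summed and scaled to base calls of the 531 genes with at least 20 positions at 30 reads in all libraries, MALAT1 stood highest in K290A at 7.43 and 7.05 log2 CPM (base calls scaled to a common library size). FKBP followed at 5.60 and 6.85, then H537A at 5.49 and 5.68, G641E at 5.20 and 5.84, NAT10-WT at 5.11 and 5.08, the samples labelled E389L at 5.82 and 4.10, NAT10(-) at 3.27 and 6.01, and Wildtype at 4.31 and 3.53. Both K290A samples lay above all other samples. Both samples of FKBP, H537A and G641E lay above both NAT10-WT samples, the closest being G641E replicate 1 at 5.20 and NAT10-WT replicate 1 at 5.11. The share of the 531 genes that separate in the same way is not given, so these orders describe the samples and are no result about MALAT1. FKBP and H537A overlapped, the H537A samples lay inside the range of G641E, NAT10-WT inside that of the samples labelled E389L, these inside that of NAT10(-), and Wildtype inside it too, so that those neighbours did not differ beyond their replicate spread.

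No genotype difference in MALAT1 passed edgeR's quasi-likelihood test with Benjamini-Hochberg adjustment over the 531 genes. K290A minus NAT10-WT was 2.16 ± 0.75 log2 units (SE, adjusted p = 0.0722, where 13.4% of genes were called), and FKBP minus Wildtype was 2.38 ± 0.75 (adjusted p = 0.0848, 6.59% of genes called). The mean of the 6 NAT10-deficient and mutant genotypes minus that of Wildtype and NAT10-WT was 1.33 ± 0.45 (edgeR adjusted p = 0.142, 3.2% of genes called). DESeq2 on the same counts put all 3 past the threshold, with 2.11 (adjusted p = 0.0247), 2.29 (adjusted p = 0.0218) and 1.29 (adjusted p = 0.0322), so that these calls depend on the tool. The share of all genes that DESeq2 called in these comparisons is not given, so its calls cannot be set against a background.

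FKBP minus NAT10-WT was 1.26 ± 0.73 (edgeR adjusted p = 0.378, 0.753% of genes called). For the other mutants minus NAT10-WT, edgeR gave 0.49 ± 0.72 in H537A (adjusted p = 0.998, 0% called), 0.46 ± 0.72 in G641E (adjusted p = 0.957, 0.188% called) and 0.11 ± 0.72 in the samples labelled E389L (adjusted p = 1.00, 0% called). NAT10(-) minus NAT10-WT was 0.12 ± 0.72 and Wildtype minus NAT10-WT was -1.12 ± 0.73 (edgeR adjusted p = 0.999 and 0.609, 0% called in each). The helicase mutants minus the GNAT mutants gave 0.66 ± 0.51 (edgeR adjusted p = 0.453, 2.64% called), and 0.16 without the first replicate labelled E389L. FKBP minus NAT10-WT was 0.50 without FKBP replicate 2. G641E minus NAT10-WT was 0.20 without G641E replicate 2 and 0.75 without replicate 1, and over all positions listed in any library, with unlisted ones counted as 0 reads, it was 1.58, where K290A minus NAT10-WT was 1.31. The differences of NAT10(-) and of the samples labelled E389L turned to -1.74 without NAT10(-) replicate 2 and to -1.06 without the first replicate labelled E389L. In bulk RNA, less MALAT1 per cell and fewer cells that express it cannot be told apart.

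MALAT1 level moved with the breadth of the libraries. Over the 16 RNA samples, log2 CPM of MALAT1 and the log2 number of exonic positions listed for all genes had Pearson's r of 0.706 and Spearman's rho of 0.624, with r of 0.507 without the 2 samples farthest from the median. K290A libraries listed 868663 to 3562792 exonic positions of all genes, and NAT10-WT libraries 284105 to 531396. The part of this breadth in the MALAT1 difference was not tested.

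**Figure D2:**
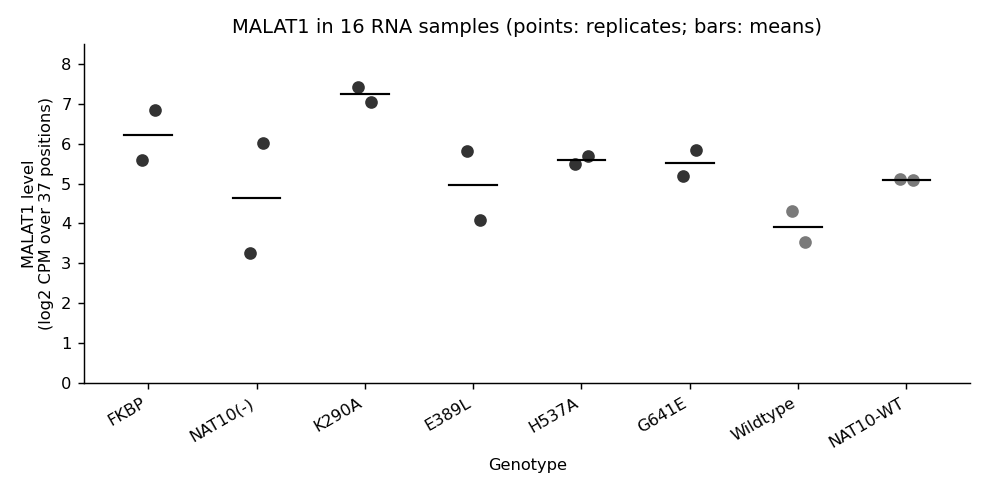
MALAT1 level (y axis, log2 CPM over the 37 positions listed in all libraries) in the 8 genotypes (x axis), with 2 points a genotype for the replicates and a bar for their mean. Both K290A points, at 7.43 and 7.05, lie above all others, and the replicates of NAT10(-), at 3.27 and 6.01, are the farthest apart.

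Between the fractions of one RNA, MALAT1 was higher in NaCNBH3 than in mock by 0.25 ± 0.11 log2 units (SE, 16 RNA samples), which did not pass after adjustment over all genes (edgeR unadjusted p = 0.0365, adjusted p = 0.36, 0.753% of genes called).

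Among the genes whose levels were most like MALAT1 over the 16 RNA samples were RPS7 (Pearson's r 0.967), NPM1 (0.956), RPL30 (0.956) and ALDH1A1 (0.944). RPS7 and RPL30 are ribosomal proteins, NPM1 is a nucleolar chaperone and ALDH1A1 a retinaldehyde dehydrogenase. All points share libraries, so these values describe the samples.

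The proteins and RNAs that work beside these transcripts were sparsely read. Of 16 paraspeckle protein genes, 4 had enough positions (NONO, HNRNPK and HNRNPH1 among them), as did 3 of 16 nuclear speckle and splicing factor genes (HNRNPC, HNRNPA1 and HNRNPA2B1), 4 of 13 other noncoding RNAs (SNHG1, SNHG5, GAS5 and RMRP) and 0 of 9 genes of MALAT1 3′ end formation and nuclear RNA turnover. None of these 11 genes passed edgeR's test in any of the genotype comparisons or between fractions, where between 0% and 13.4% of all 531 genes did, so a count of 0 among 11 genes is near the background and is no result about these lists. In K290A minus NAT10-WT the paraspeckle genes had a median log2 difference of 0.63, the speckle genes 0.46 and the other noncoding RNAs -0.10, beside 0.03 over all 531 genes. In G641E minus NAT10-WT the paraspeckle and speckle medians were -0.34 and -0.57, beside -0.01 over all genes. For the label E389L they were 0.04 and -0.04, beside 0.02.

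Within the covered span, depth was uneven. In the mean over the 16 libraries of the 8 well-covered RNA samples, the first 500 nt were the deepest bin at 1.51 ± 0.35 times the library's own mean (SD, 1.03 to 2.03). The bin from 3000 to 3499 nt was the shallowest of the 14 bins with enough positions, at 0.686 ± 0.142 (0.450 to 0.927). The first bin was not the deepest in every library. In G641E mock replicate 1 it stood at 1.13, against 1.49 from 6500 to 6999 nt, and in K290A mock replicate 1 at 1.03, against 1.16 from 4000 to 4499 nt. The depth profiles of the 2 fractions of one RNA correlated at 0.822 to 0.989 across bins, and those of different RNA samples at 0.0739 to 0.979 with a median of 0.623, as a description across positions of one transcript.

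Of 5 local gaps in the profile, 4 held runs of G and the other was the single base 65504322. The sequences that follow hold or begin 3 of the places where the median depth was under 0.5 of that in the window around them, with capitals for runs of 3 or more G and of 5 or more T:
low stretch 1: taactgaggcGGGGGGGagttttcagtatt
low stretch 2: TTTTTTTTgtGGGGGtGGGGGcaaaatatg
low stretch 3: aGGGatGGGaggaGGGGGtGGGGcttactt
The first lies at 65501207 to 65501213 and holds G only, and was incompletely listed in all 16 well-covered libraries. The second, at 65501236 to 65501276, was also incomplete in all 16. It runs past the bases shown and was 39.0% T and 29.3% G, so T was more common in it than G. The third, at 65504281 to 65504292, was incomplete in 15. Over all 69 positions in runs of 5 or more G, median depth was 0.80 of the surroundings (0.662 to 0.891 between libraries), and 31.2% of the values at these positions were not listed. Runs of 5 or more C, A and T stood at 1.00, 0.971 and 0.978, with 0%, 8.72% and 4.5% of values not listed. Runs of G were therefore the least covered of the 4 bases.

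**Figure D3:**
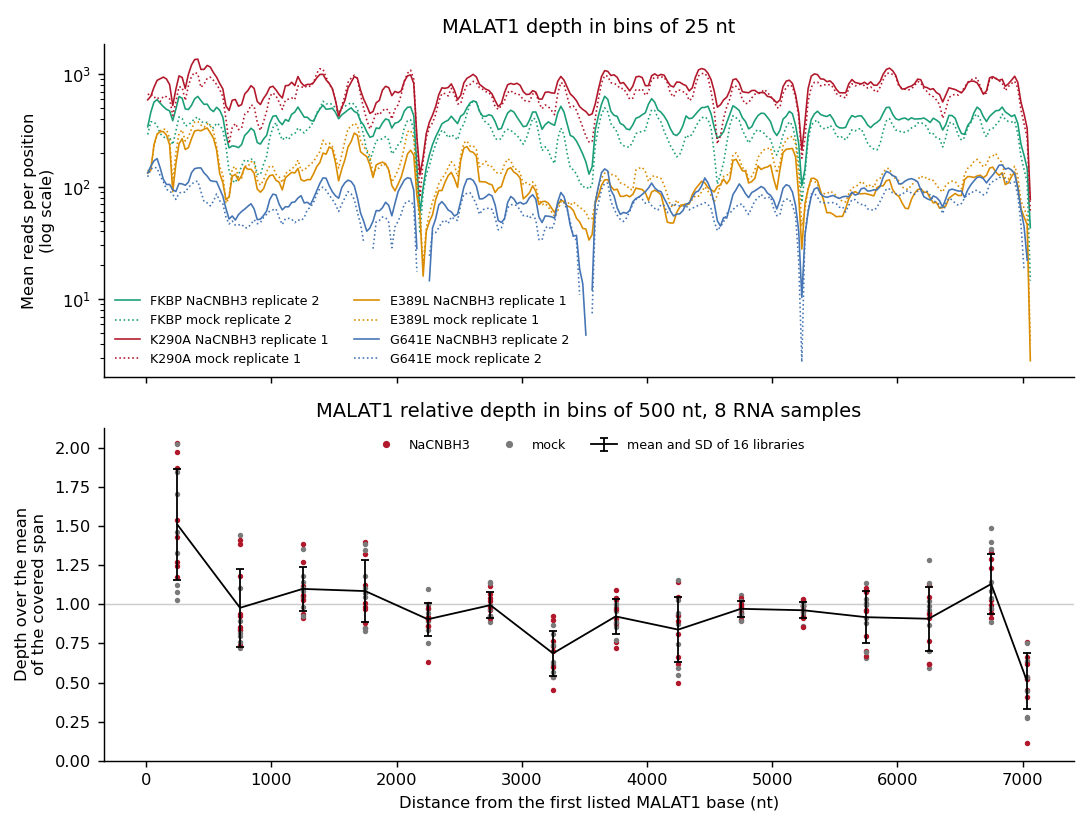
Depth along MALAT1 against distance from its first listed base (x axis, nt). Top, mean reads per position in bins of 25 nt on a log scale with unlisted positions counted as 0, for 8 libraries of 4 RNA samples (solid, NaCNBH3; dotted, mock). Bottom, depth over the library's own mean in bins of 500 nt for 16 libraries (points) with mean and SD. The mean is highest in the first bin at 1.51 and lowest among the 14 bins with enough positions at 0.686. Sharp dips in the top panel lie at stretches that hold G runs.

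The balance between the 3′ and 5′ parts of MALAT1, split at the middle of its exon, was compared over the 6440 positions listed in all of these 16 libraries. The log2 ratio of mean depth, 3′ over 5′, was 0.09 and -0.32 in K290A and -0.53 in the sample labelled E389L, and 0.21 and 0.13 in G641E. FKBP had -0.00 and -0.07, and NAT10(-) had -0.67. The helicase samples minus the GNAT samples, both of them G641E, differed by -0.42 in an exact permutation test over 3 and 2 samples (two-sided p = 0.2, where 0.1 is the smallest it allows). With all samples of the helicase and GNAT mutants and unlisted positions counted as 29 reads, it was -0.069 (exact permutation test, p = 0.629). H537A then stood at -0.58 and -0.39. With unlisted positions counted as 0, the difference was -1.08 (exact permutation test, p = 0.6). Both fills took all exonic positions, 5217 in each part, also those that no library listed. In samples with few listed positions, the ratio with 29 reads is therefore set mostly by the filled-in value. It was -0.0045 in the second replicate labelled E389L and -0.0026 in NAT10(-) replicate 1. The ratio was lower in NaCNBH3 than in mock in 7 of 8 RNA samples, by 0.0753 ± 0.0782 log2 units in the mean (SD, n = 8, two-sided exact permutation test with sign flips, p = 0.0234). Over all 16 RNA samples and all exonic positions, with unlisted ones counted as 29 reads, the difference was -0.0596 (p = 0.0307, permutation test). This call was lost without any 1 of FKBP 1, K290A 1, K290A 2, H537A 2 or NAT10-WT 1 (permutation test, p = 0.0501 to 0.0614). With unlisted positions counted as 0 reads, the difference was -0.0195 (permutation test, p = 0.859). No H537A, Wildtype or NAT10-WT sample was covered well enough for the comparison over the 6440 positions.

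NEAT1 was listed in 11 libraries. K290A libraries had 3809 and 2074 positions in NaCNBH3 and 4164 and 838 in mock, and FKBP libraries 1053 and 3382 in NaCNBH3 and 1233 and 3028 in mock. G641E libraries had 321 and 262 positions in NaCNBH3 and 420 and 0 in mock. All libraries of NAT10(-), H537A, Wildtype, NAT10-WT and the label E389L had none, among them NAT10(-) replicate 2 and the first replicate labelled E389L, which covered over 96% of the MALAT1 span. Mean depth at listed positions was 35.0 to 65.4 reads and the deepest position had 139, so NEAT1 stayed near the limit of 30 reads and an unlisted position says only that fewer than 30 reads covered it. NEAT1 had no position with 30 reads in all libraries, so no level, fold change or most similar gene could be given for it.

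The reads that were listed lay mostly in the part common to both isoforms, the 3740 nt up to position 65426513. K290A replicate 1 covered 97.5% of it in NaCNBH3 and 97.8% in mock, and FKBP replicate 2 covered 86.0% and 71.7%. Beyond the end of the short isoform these libraries listed 164 (NaCNBH3) and 505 (mock) positions in K290A and 165 and 348 in FKBP, and FKBP NaCNBH3 replicate 1 listed 21. The other 6 libraries with NEAT1 positions listed none there. The first listed position was 65422798 and depth was highest within 54 to 252 nt of the annotated start in 10 of 11 libraries. The farthest listed positions were 65444080 in FKBP mock replicate 2 and 65443148 in K290A NaCNBH3 replicate 1, both specific to the long isoform. The 58 positions of menRNA were listed in no library.

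**Figure D4:**
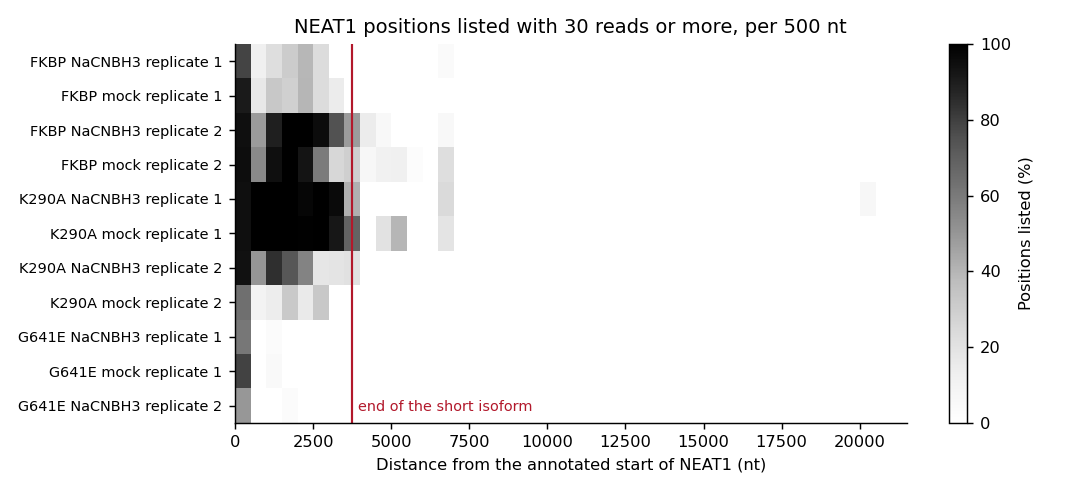
Share of NEAT1 positions with 30 reads or more in bins of 500 nt (grey scale, percent) against distance from the annotated start (x axis, nt) in the 11 libraries that list any. Coverage lies left of the end of the short isoform (red line) apart from up to 505 positions in 5 libraries.

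At a reference cytosine, ac4C adds T reads after NaCNBH3 beyond those in mock. By the paper, the treatment can also reduce other modified cytosines or cause deamination. It therefore kept as ac4C only sites that also fell significantly in NAT10(-) against Wildtype and NAT10-WT. The test given here compares NaCNBH3 with mock only. No MALAT1 or NEAT1 position passed the two-sided Fisher test of NaCNBH3 against mock in both replicates of any genotype. To be tested, a position needed a depth of 30 in each fraction, a mismatch in at least 5 reads and in over 1% of reads, the read and share minimums of the study's methods. Across the whole transcriptome this rule called 1.9% of tested positions in FKBP, 1.89% in NAT10(-), 2.38% in K290A, 1.73% in E389L by label, 2.47% in H537A, 1.62% in G641E, 3.56% in Wildtype and 4.03% in NAT10-WT. Few positions of the 2 genes could be tested, 5 in K290A, 3 in FKBP, 2 in G641E, 1 each in H537A and NAT10-WT and 0 in the others, so the absence of calls covers those positions and depths.

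The only position called within a single replicate was C65500892T of MALAT1 (reference base, position on chromosome 11 and read base). T was read in 1 of 555 NaCNBH3 reads and 8 of 224 mock reads of K290A replicate 1, a difference of -3.39 percentage points (Fisher adjusted p = 0.00459, where 10.1% of positions were called). In K290A replicate 2 the same position had 2 of 136 NaCNBH3 reads and 0 of 134 mock reads with T, and in G641E replicate 2 it had 5 of 36 and 0 of 51. The direction therefore differed between samples.

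Summed over all cytosines, MALAT1 reads carried slightly more T after NaCNBH3. Over cytosines with 30 reads in both fractions of each RNA sample (6 to 1054 a sample), the T share was 0.113% ± 0.058 in NaCNBH3 and 0.0637% ± 0.0323 in mock (SD, n = 16 RNA samples). The rise was 0.0492 ± 0.0345 percentage points and was seen in 14 of 16 samples, with the other 2 (NAT10(-) replicate 1 and the second replicate labelled E389L) at 0 T reads in both fractions (permutation test with sign flips, adjusted p = 0.00183 over 30 tests). With the mismatch site C65504361T left out by a limit of 10% mismatch in mock, the shares were 0.0868% ± 0.0444 in NaCNBH3 and 0.0389% ± 0.0197 in mock, a rise of 0.0479 ± 0.0344. Over the 3 cytosines listed in all 32 libraries the rise was 0.0295 ± 0.171 percentage points (permutation test, p = 0.512), so that those cytosines alone show no difference beyond the spread.

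The rise was not particular to cytosines. A to T reads at MALAT1 adenosines were 0.0573% ± 0.0239 in NaCNBH3 and 0.00631% ± 0.00385 in mock, a difference of 0.0510 ± 0.0248 percentage points, higher in 15 of 16 RNA samples and lower in none (permutation test, adjusted p = 0.00183). A to G reads were 0.0280% ± 0.0213 in NaCNBH3 and 0.0154% ± 0.0067 in mock (permutation test, adjusted p = 0.00671), although not over positions with 100 reads (adjusted p = 0.904).

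C to T, A to T and A to G reads also rose in the exons of protein-coding genes. In MALAT1 the C to T rise was 0.0479 ± 0.0344 percentage points, against 0.0543 ± 0.0170 in protein-coding exons, where it was seen in 16 of 16 RNA samples. MALAT1 minus protein-coding exons was -0.00647 ± 0.0295 (SD, n = 16, permutation test, p = 0.392, adjusted p = 0.783 over 12 substitutions). The A to T rise was 0.0510 ± 0.0248 in MALAT1 and 0.0495 ± 0.0128 in protein-coding exons, a difference of 0.00149 ± 0.0161 (permutation test, p = 0.72). For A to G the rise was 0.0125 ± 0.0247 in MALAT1 and 0.00853 ± 0.00198 in protein-coding exons, a difference of 0.00402 ± 0.0252 (permutation test, p = 0.841).

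The C to T rise at all MALAT1 cytosines was 0.0524 ± 0.0387 percentage points in the 12 samples of the 6 deficient and mutant genotypes and 0.0393 ± 0.0168 in the 4 Wildtype and NAT10-WT samples. Taken as Wildtype and NAT10-WT minus the others, the difference was -0.0131 (two-sided permutation test, p = 0.518). Over the 3 cytosines listed in all libraries it was -0.189 (permutation test, p = 0.0676), and -0.0767 without NAT10-WT replicate 1 (p = 0.387), since the other 3 samples of these genotypes had a difference of 0.

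NEAT1 gave few reads for this measure. Over 5 RNA samples its T share at cytosines was 0.113% ± 0.052 in NaCNBH3 and 0.0687% ± 0.0496 in mock, higher in NaCNBH3 in 4 of 5 (exact permutation test, p = 0.188, where 0.0625 is the smallest it allows).

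ac4C in rRNA and tRNA lies at the middle cytosine of CCG, so these cytosines were taken apart. MALAT1 has 43 CCG triplets, of which 12 had a listed middle cytosine, and NEAT1 has 94, of which 28 did. In Wildtype and NAT10-WT all MALAT1 middle cytosines tied at no T read in NaCNBH3, so the 5 triplets with the highest share of T over all NaCNBH3 libraries are shown, a choice made after seeing the values, with capitals for CCG, to give the context of the T reads that were found:
CCG 65505569: gccaccCCGtgccttt
CCG 65500893: cgtaggCCGatttccg
CCG 65500773: aaaaatCCGtgaggtc
CCG 65504404: ctgatcCCGctgctat
CCG 65505360: aagcatCCGaaggaat
The number is the position of the middle cytosine. The triplet at 65500893 begins at the base of C65500892T. At 65505569, T was read in 5 of 1764 NaCNBH3 reads and 0 of 1722 mock reads over all libraries, a share of 0.283% in NaCNBH3. At 65500893 it was 3 of 1822 and 0 of 1431, at 65500773 3 of 2153 and 1 of 1905, at 65504404 3 of 2532 and 0 of 2048, and at 65505360 2 of 1719 and 0 of 1461. The 5 were picked by their NaCNBH3 share, so the choice itself favours NaCNBH3 over mock at them. In the NaCNBH3 libraries of Wildtype and NAT10-WT none of the 12 middle cytosines had a T read in 1591 reads.

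Over MALAT1 CCG cytosines read in both fractions, the 6 deficient and mutant genotypes had 28 T of 28527 NaCNBH3 reads (0.0982%) and 5 of 23135 mock reads (0.0216%), higher in NaCNBH3 in 9 of 10 RNA samples. Wildtype and NAT10-WT samples had 0 T of 1261 NaCNBH3 reads, which allows a share of up to 0.238%, and 1 of 975 mock reads. NaCNBH3 minus mock was 0.0954 ± 0.0699 percentage points in the 10 deficient and mutant samples and -0.0622 ± 0.124 in the 4 Wildtype and NAT10-WT samples (SD), where the 1 mock read, in NAT10-WT replicate 1, sets the sign. The difference, -0.158 percentage points as Wildtype and NAT10-WT minus the others, passed an exact permutation test (two-sided p = 0.005, unadjusted), yet at this depth the limit of the Wildtype and NAT10-WT libraries includes the share of the others. Over all 14 samples, CCG cytosines had 0.0742% ± 0.0743 in NaCNBH3 and 0.0238% ± 0.0665 in mock (permutation test, p = 0.111, adjusted p = 0.625). NEAT1 CCG cytosines had 4 T of 3628 NaCNBH3 reads and 3 of 3537 mock reads in 5 samples, none of them Wildtype or NAT10-WT. Over all libraries, the NEAT1 CCG cytosine at 65423087 had T in 3 of 384 NaCNBH3 reads and 0 of 322 mock reads. It is named for the highest NaCNBH3 share of the 28 listed, a choice that favours NaCNBH3 over mock.

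Mismatches to the reference that were present in both fractions were found in both transcripts. MALAT1 had 4 positions with at least 5 mismatch reads and a share above 1% in both replicates of a genotype and fraction, and NEAT1 had 1. They are shown with the mismatched base in capitals, and each name gives the reference base, the position on chromosome 11 and the read base:
C65504361T: tcttgacttcaggtCtgtctgttctgttgg
T65499319C: ggttgagatgaagcTtcttcatggagtaaa
A65504322C: ctttttttttttttAcagacttcacagaga
A65501021C: ggttttttttttttAcacgaatttgaggaa
G65422908T: gagttagatgagacGagggggcgggctggg
C65504361T was read in all 22 libraries that listed the position, at 27.2% to 48.4% of reads. Pooled over the libraries of a genotype it stood between 33.6% (732 of 2176 reads, K290A) and 44.2% (73 of 165 reads, H537A), and NAT10-WT replicate 1 had 32 of 73 reads. NaCNBH3 minus mock was 0.624 ± 7.54 percentage points over 11 RNA samples (permutation test, adjusted p = 0.961 over 7 sites). The site was called in mock as in NaCNBH3 libraries. The position was not listed in Wildtype.

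T65499319C had unequal shares in the genotypes. Pooled over fractions and replicates, C made up 9.42% of reads in FKBP (126 of 1337, 95% exact interval 7.91% to 11.1%), 4.03% in NAT10(-) (21 of 521), 6.13% in K290A (161 of 2625), a share set by 9 of 599 reads in E389L by label, 2.14% in H537A (7 of 327), 5.93% in G641E (24 of 405) and 4.73% in NAT10-WT (19 of 402). Wildtype had 0 of 186 reads, with an upper limit of 1.96% by the 95% exact interval. In FKBP the share was 12.4% and 10.03% in NaCNBH3 and 8.49% and 7.67% in mock. Single libraries overlapped, since G641E had 4.72% and 3.67% in NaCNBH3 and 7.84% and 7.95% in mock, and NAT10-WT mock replicate 2 had 7.04%. NaCNBH3 minus mock was -0.0282 ± 2.34 percentage points over 14 RNA samples (permutation test, adjusted p = 0.961). Genotypes were not tested against each other at this site, which was picked for its share, and intervals cover counting error only.

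A65504322C and A65501021C follow runs of 13 and 12 T, and the base after each is C. A65504331C, which passed the minimum in 3 of 17 libraries (1.61% to 2.85%) but not in both replicates, is also followed by C and follows no T. A65504322C was listed in 8 libraries at 31.5% to 56.3%, in a local gap of depth, and A65501021C in 17 libraries at 0% to 4.92%. At A65501021C the NaCNBH3 minus mock difference was -1.001 ± 1.78 percentage points over 8 RNA samples (exact permutation test, adjusted p = 0.602), whereas A65504322C was listed in both fractions of 3 RNA samples only. The third run of at least 8 T followed by A in the covered span has 9 T and gave no mismatch site.

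In NEAT1, G65422908T was read in 100% of reads in all 9 libraries that listed it, 260 of 260 in FKBP, 256 of 256 in K290A and 44 of 44 in G641E. C65429413G was also at 100% in the 3 libraries that listed it, and lies in the part specific to the long isoform, as does T65429460A, listed in 1 library at 61.3% of 31 reads. Of these 3 positions, the first 2 were at 100% in both fractions and the other was listed in a single library.

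**Figure D5:**
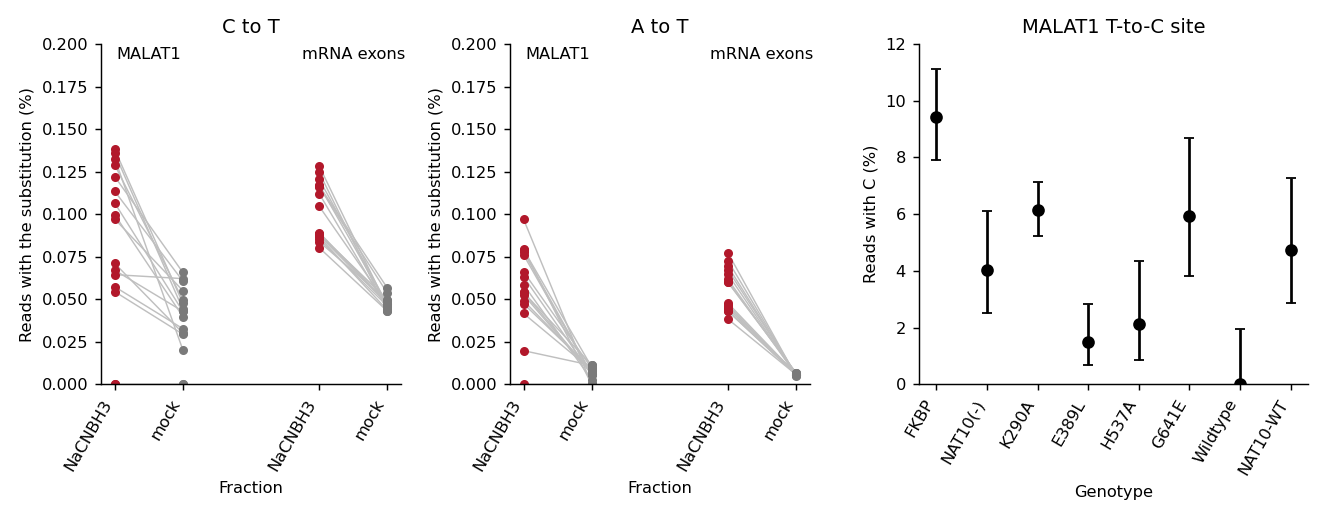
Left and middle, share of reads (y axis, percent) with C to T and A to T in MALAT1 and in protein-coding exons (mRNA exons), with a point for each of 16 RNA samples and lines that join its NaCNBH3 and mock fractions. Right, share of C reads at the MALAT1 T-to-C site in each genotype with 95% exact intervals for counting error, 9.42% in FKBP and 0 of 186 reads in Wildtype.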

How the data were processed

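RNA of 16 Hep3B samples was partly depleted of rRNA by the authors, fragmented, split into NaCNBH3 and mock fractions and reverse transcribed with 2-amino-dATP. Per the labels and methods, reads were trimmed with cutadapt 4.2, which also removed G stretches at 3′ ends, aligned to the human genome (GRCh38) with STAR 2.7.9a, deduplicated by molecular identifier with UMI-tools and piled up with SAMtools 1.6. The deposited files hold raw counts of A, C, G and T per position and strand, at positions with 30 reads or more. A position that is not listed therefore has 0 to 29 reads. Depth stopped at 20029 to 20049 reads, which no position of these genes reached, and insertions and deletions are not given. Reference bases of the files matched the genome at all 173133 rows of the region.

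Exons came from GENCODE v44 (62663 genes). Gene levels were base calls summed over positions with 30 reads in all 32 libraries, so that 1 read counts at several positions. The intended minimum of 100 such positions per gene left MALAT1 with no value, since it has 37, and the intended alternative of 20 positions is reported. Tests used edgeR 4.0.16 with TMM, limma 3.58.1 and DESeq2 1.42.0 in R 4.3.3, and SciPy 1.17.1 and NumPy 2.4.6 in Python 3.11.15. Sign flips within RNA samples and relabelling of samples gave permutation p-values, and Benjamini-Hochberg adjustment used 0.05. The C to T share was meant for positions listed in all libraries. The version over positions listed in both fractions of each RNA sample, and the depth ratio over the 8 well-covered RNA samples, were chosen after seeing the data. Named positions were those called in a genotype, up to 3 per substitution with the highest share, and 5 CCG cytosines per gene, by T share in Wildtype and NAT10-WT. Named genes were the 5 most correlated with MALAT1 and list members past the threshold. Some items these rules select are not reported here. The members and lists were chosen with earlier results of these data known.

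The labels also give the replicate number as a batch, so the fit with the number as a block was run as an alternative, while the fits reported have no block. Deviations of same-numbered samples of 2 genotypes correlated at -0.284 to 0.753 (median 0.286, 20 of 28 pairs over 0.1). No pair of replicate libraries agreed within the counting noise of summed base calls. Since 1 read counts at several positions, this comparison cannot measure the sampling noise of reads. The count tests were tested on simulated data. Alternatives were other scaling and tests, other minimums, unlisted positions as 0 or 29 reads, 1 fraction only, a replicate block and leaving out each replicate.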

Additional observations from a re-analysis of the deposited data

Results flagged for a closer look

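The C to T difference at MALAT1 CCG cytosines drew attention because 2 groups of genotypes differed under the same contrast. NaCNBH3 minus mock was 0.0954 percentage points in the 10 samples of the deficient and mutant genotypes and -0.0622 in the 4 Wildtype and NAT10-WT samples, a difference of -0.158 as Wildtype and NAT10-WT minus the others (exact permutation test, two-sided p = 0.005, unadjusted). It rests on 28 T of 28527 NaCNBH3 reads and 5 of 23135 mock reads in the deficient and mutant samples, and on 0 of 1261 NaCNBH3 reads and 1 of 975 mock reads in the Wildtype and NAT10-WT samples. The limit of up to 0.238% that 0 of 1261 reads allows includes the 0.0982% of the deficient and mutant samples, so the depth of the Wildtype and NAT10-WT libraries does not separate the groups, and 3 of their 4 samples had no T read in either fraction. Leaving out single samples gave -0.178 to -0.0954, with p between 0.0014 and 0.0455. As a mean over positions, the difference without NAT10-WT replicate 1 was -0.107 (permutation test, p = 0.0524).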

How the results depend on the processing

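Of 424 alternative values for 25 results, 394 kept direction and side of the threshold. For the depth alternatives that moved MALAT1 past the threshold, the share of all genes called is not given. For K290A minus NAT10-WT, FKBP minus Wildtype and all deficient and mutant genotypes minus Wildtype and NAT10-WT, DESeq2 passed the threshold at 2.11, 2.29 and 1.29, and K290A also passed at 1.96 over positions shared with NAT10-WT (minimum 100 positions, adjusted p = 0.0316, against 0.0846 with a minimum of 20, both chosen after seeing the data). NAT10(-) turned to -0.45 with limma, -0.18 with NaCNBH3 libraries only and -0.51 with unlisted positions as 0 reads, the label E389L to -0.13, -0.12 and -0.73, and helicase minus GNAT mutants to -0.91 with unlisted positions as 0. The cause was not tested. Without 1 replicate, the values were 2.01 to 2.42 for K290A, 1.61 to 2.88 for FKBP minus Wildtype, 1.02 to 1.55 for deficient and mutant minus Wildtype and NAT10-WT, 0.50 to 1.76 for FKBP minus NAT10-WT, 0.20 to 0.75 for G641E, 0.16 to 0.96 for helicase minus GNAT mutants, -1.74 to 0.89 for NAT10(-) and -1.06 to 0.79 for the label E389L. K290A passed without NAT10(-) replicate 1 (adjusted p = 0.0246) or 2 (0.019) or the second replicate labelled E389L (0.0477), FKBP minus Wildtype without NAT10(-) replicate 1 (0.0263) or 2 (0.0373) or the first labelled E389L (0.0492), and the deficient genotypes without NAT10(-) replicate 1 (0.0344), all by edgeR. The cause was not tested.

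With the replicate block, K290A gave 2.17 (edgeR adjusted p = 0.068), FKBP minus Wildtype 2.31 (0.0807) and the deficient genotypes 1.299 (0.124), and the block changed no call for MALAT1. Over all genes, 30 were called with the block and 17 without it for the deficient genotypes, and 26 and 14 for helicase minus GNAT mutants.

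The C to T rise in MALAT1, 0.0295 and not significant at positions listed in all libraries, passed at positions read in both fractions as 0.0492, with 100 reads as 0.0735, without positions over 10% mock mismatch as 0.0479, as a mean over positions as 0.0482, and with both changes as 0.0477. No position had 100 reads in all libraries, and no CCG cytosine lay in the 37 positions, so those versions gave no value. CCG cytosines gave 0.0368 to 0.0734 without 1 sample, past the threshold only without NAT10-WT replicate 1. The 3′ to 5′ ratio of NaCNBH3 minus mock fell short with unlisted positions as 0 reads (-0.0195). Deficient and mutant minus Wildtype and NAT10-WT gave 0.52 for that ratio with unlisted positions as 0 (permutation test, p = 0.502), and 0.00876 with them as 29. Without 1 sample the version with 0 reads gave 0.434 to 0.914, past the threshold only without the second replicate labelled E389L (permutation test, p = 0.0022). Both fills cover all exonic positions, so these values rest partly on positions that no library listed. Mismatch sites of NEAT1 fell to 0 with 100 reads. Positions called between fractions ran from 0 to 1 for MALAT1 when 1 replicate decided. Depth limits single cytosines: in the deepest library, K290A NaCNBH3 replicate 1, 0 T at the median cytosine depth of 809.5 reads allows a share of up to 0.371%.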
